A study of Homo sapiens with 12 samples.

Results

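Islet hormone genes encode the peptides by which the endocrine cells of the pancreas are told apart, and their mRNA levels were compared here between senescent and non-senescent EndoC-βH3 cells. The group held 7 genes, chosen by name: INS, IAPP, GCG, SST, PPY, GHRL and UCN3. Each matched 1 of the 35337 rows of the deposited table. EndoC-βH3 is a human beta-like line made from fetal pancreas, kept dividing by 2 introduced genes, SV40 large T antigen and hTERT, both of which the recombinase CreER cuts out once tamoxifen activates it. Senescent cells had been treated with 4-hydroxytamoxifen (4-OHT) for 3 weeks. Non-senescent cells are labelled as controls and kept the introduced genes, and all libraries carry the genotype label WT. All 12 libraries came from this single line, so they share 1 genetic background, and nothing in the labels ties a library to a separate culture. P-values therefore measure the spread between these libraries, which may be technical. RNA was read by CEL-seq, which counts reads at the 3′ end of polyadenylated transcripts. Library titles carry the letter A or B, taken as the batch, with 2 libraries of each group in A and 4 of each group in B.

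In the adult islet each hormone marks a cell type. Beta cells make insulin (INS) and store with it islet amyloid polypeptide (IAPP), alpha cells make glucagon (GCG), delta cells somatostatin (SST), gamma cells pancreatic polypeptide (PPY) and epsilon cells ghrelin (GHRL). Urocortin 3 (UCN3) is a peptide of mature beta cells that acts on delta cells and also occurs in human alpha cells. Insulin lowers and glucagon raises blood glucose, while somatostatin restrains the release of both. Fetal endocrine cells and cultured beta-like lines often hold several of these transcripts side by side.

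The promoters of INS, IAPP, GCG and SST are shown because the mRNAs of INS and IAPP moved one way and those of GCG and SST the other. Each is the 250 bases before the start site in RefSeq, build GRCh38.p14, on the strand of the gene, written 5′ to 3′. The windows are chr11:2161210-2161459 (INS, minus strand), chr12:21372652-21372901 (IAPP, plus strand), chr2:162152248-162152497 (GCG, minus strand) and chr3:187670395-187670644 (SST, minus strand). Capitals mark matches, on either strand, to TAAT (the core bound by homeodomain factors such as PDX1), TGCTGAC (the left side of the Maf recognition element), TGACGTCA (the cAMP response element) and TATAA (the core of the TATA box), some of which overlap.
INS: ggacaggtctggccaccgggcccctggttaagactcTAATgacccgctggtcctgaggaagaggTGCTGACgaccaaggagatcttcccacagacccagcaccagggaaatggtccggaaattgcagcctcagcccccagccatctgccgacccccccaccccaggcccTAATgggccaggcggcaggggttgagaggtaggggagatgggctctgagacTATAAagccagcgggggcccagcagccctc
IAPP: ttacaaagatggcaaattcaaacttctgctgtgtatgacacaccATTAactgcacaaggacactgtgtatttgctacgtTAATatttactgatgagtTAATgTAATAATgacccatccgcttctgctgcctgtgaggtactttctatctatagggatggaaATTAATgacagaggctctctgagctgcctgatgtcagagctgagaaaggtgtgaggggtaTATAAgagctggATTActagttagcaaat
GCG: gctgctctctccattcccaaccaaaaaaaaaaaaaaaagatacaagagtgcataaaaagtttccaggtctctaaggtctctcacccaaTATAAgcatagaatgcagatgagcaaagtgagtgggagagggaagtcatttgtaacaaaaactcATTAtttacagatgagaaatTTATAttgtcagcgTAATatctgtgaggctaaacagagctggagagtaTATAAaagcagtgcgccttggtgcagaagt
SST: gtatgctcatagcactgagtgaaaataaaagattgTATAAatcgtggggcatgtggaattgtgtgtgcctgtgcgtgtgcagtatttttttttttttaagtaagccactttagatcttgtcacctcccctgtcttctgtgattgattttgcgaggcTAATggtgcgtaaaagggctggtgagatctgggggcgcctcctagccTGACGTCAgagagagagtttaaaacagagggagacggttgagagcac

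In the INS window TAAT began 214 and 81 bases before the start, TGCTGAC 186 bases before it and TATAA 30 bases before it. The IAPP window held 8 TAAT matches and a TATAA 29 bases before the start. RefSeq gives IAPP a further start upstream, whose window held 2 TAAT matches and TGCTGAC 170 bases before it, and reads from the 3′ end do not tell which start was used. The GCG window held 2 TAAT and 3 TATAA matches, the nearest TATAA 30 bases before the start. SST was the 1 gene of the 4 with TGACGTCA, 47 bases before its start, and it also held TAAT and TATAA matches. Among 35116 RefSeq promoters of this length 47.4% held TAAT, 18.9% TATAA, 3.43% TGCTGAC and 1.65% TGACGTCA. TAAT and TATAA are thus common in any promoter, and a match is a description of letters, not of binding. UCN3 had no entry in the promoter table.

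Batch A libraries held 8873569 to 17106776 reads and batch B libraries 4672924 to 7063264, so a low gene is counted with less error in a library of A. Where a gene had 0 reads in a library, up to 3 reads (0.175 to 0.642 RPM, the reads of a gene per 1000000 reads of its library) cannot be told from 0, a limit that covers counting error only. Mitochondrial genes took 19.9% to 20.2% of reads in non-senescent and 24.7% to 24.8% in senescent libraries of batch A, and 15.6% to 16.4% and 17.2% to 17.9% in batch B. This share moved with group and batch, and its part in the results below was not tested. MKI67, a gene of dividing cells, lay at 411 to 735 normalised read counts in non-senescent and 63.7 to 88.4 in senescent libraries. CDKN1A, a cell-cycle inhibitor gene that the study uses as a senescence marker, lay at 24.5 to 76.0 and 133 to 1501. Its senescent values were thus widely spread, and the part of this spread in the results below was not tested. TERT was listed at 47.7 to 137 and 78.5 to 136, but these values do not tell the introduced hTERT from the cells' own gene and check nothing about its removal.

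INS and IAPP, the hormones of the beta cell, rose upon senescence, while GCG, SST and UCN3 fell. All 5 members with enough reads were called, against 23.4% of the 13847 genes tested. Calls needed a limma adjusted p below 0.1 together with more than a 1.5-fold change, in a fit with batch and group. Higher calls made up 11.6% of tested genes (1605) and lower calls 11.8% (1632). When libraries were scaled to the same total instead, the split was 1226 higher and 2090 lower, and the 5 hormone genes were called in the same directions. Within batch A and within batch B the senescent libraries lay wholly to the same side of the non-senescent ones for all 5 members, which 23.8% of tested genes did. GHRL and PPY were too low for this test. These are bulk libraries, in which fewer cells of a type and less RNA per cell cannot be told apart.

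**Figure D1:**
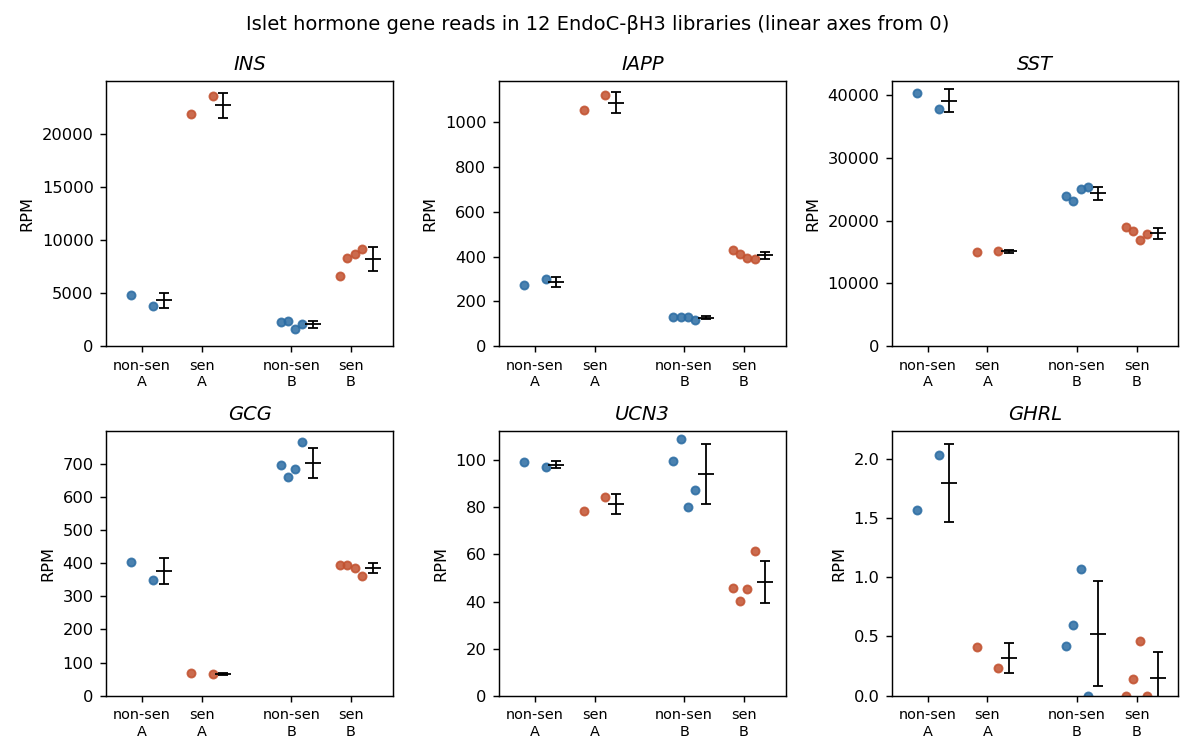
Levels of 6 hormone genes in RPM, on linear axes from 0 with 1 panel per gene. Points are single libraries, non-senescent (blue) and senescent (orange) within batches A and B, and the bar beside them is the mean with the SD (n = 2 in A, n = 4 in B). INS and IAPP are higher and SST, GCG and UCN3 lower in senescent libraries of both batches, and GHRL stays near 2 RPM or below.

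INS (chromosome 11, 2159779 to 2161221, minus strand, GRCh38) encodes preproinsulin. In batch A it stood at 34331 and 26863 normalised read counts in non-senescent and at 167961 and 185508 in senescent libraries. In batch B the non-senescent libraries had 16097, 16123, 11021 and 14686, and the senescent ones 49685, 61464, 64744 and 67918. The lowest senescent library of the series thus lay above the highest non-senescent one. INS rose 4.70-fold (95% interval 3.98 to 5.56, log2 fold change 2.23, SE 0.11, limma adjusted p 1.26e-10), by 2.54 on the log2 scale in A and 2.08 in B. The difference between these responses did not pass (limma interaction adjusted p 0.328). The batches themselves stood apart, with non-senescent INS lower in B than in A by a log2 difference of -1.08. Some INS reads could be claimed by the readthrough gene INS-IGF2, which shares 246 of the 656 exonic bases of INS. INS-IGF2 had 47 to 87 reads in each batch A library, at most 0.139% of the INS reads, and 0 reads in each batch B library.

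IAPP (chromosome 12, 21354959 to 21379980, plus strand) encodes amylin, which beta cells secrete along with insulin. Batch A held 1929 and 2124 normalised read counts in non-senescent and 8105 and 8842 in senescent libraries. Batch B held 913, 889, 899 and 846 in non-senescent and 3226, 3038, 2927 and 2906 in senescent libraries. Again no senescent library overlapped a non-senescent one in either batch or over all. IAPP rose 3.65-fold (95% interval 3.31 to 4.02, log2 fold change 1.87, SE 0.07, limma adjusted p 2.34e-12), by 2.06 in A and 1.77 in B, and the batch difference did not pass (interaction adjusted p 0.201). Replicates of IAPP were close, with a coefficient of variation of 3.23% to 6.81% within a group and batch, against 7.02% to 17.3% for INS. The gene lies inside SLCO1A2 on the opposite strand, with 0 exonic bases shared.

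GCG (chromosome 2, 162142882 to 162152404, minus strand) encodes proglucagon, from which glucagon and the glucagon-like peptides are cut. In batch A it was at 2878 and 2463 normalised read counts in non-senescent and 528 and 507 in senescent libraries. In batch B it was at 4983, 4548, 4664 and 5461 in non-senescent and 2985, 2934, 2876 and 2695 in senescent libraries. Senescent values lay below non-senescent values within each batch, but senescent libraries of B overlapped non-senescent libraries of A. GCG fell by 1.30 on the log2 scale (SE 0.19, limma adjusted p 4.21e-05, fold 0.406, 95% interval 0.306 to 0.538). Its response was -2.36 in A and -0.77 in B, and the difference of 1.59 passed (limma interaction adjusted p 6.81e-06), as it did for 4.21% of tested genes. Without a batch term GCG kept its log2 fold change but lost its call (adjusted p 0.103).

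SST (chromosome 3, 187668912 to 187670394, minus strand) encodes somatostatin. Batch A held 287479 and 266842 normalised read counts in non-senescent and 114932 and 120146 in senescent libraries. Batch B held 170599, 159785, 170676 and 181386 in non-senescent and 142626, 136191, 125492 and 132717 in senescent libraries. The 2 groups did not overlap within a batch or over all. SST fell by 0.64 on the log2 scale (SE 0.12, limma adjusted p 0.000448, fold 0.640, 95% interval 0.536 to 0.765), with -1.24 in A and -0.35 in B, and this difference of 0.89 also passed (interaction adjusted p 0.000747). The call of SST rests on batch A. In batch B alone the change of -0.35 stayed under the fold change limit, and without any one of non-senescent A1 or A2 or senescent A1 or A2 the change was -0.56, -0.58, -0.56 or -0.58, just under the limit of 0.585 in size, with adjusted p of 0.00144 to 0.00183. The senescent levels of the batches, 114932 to 142626, lay closer together than the non-senescent ones.

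UCN3 (chromosome 10, 5364966 to 5374692, plus strand) had 705 and 684 normalised read counts in non-senescent and 602 and 665 in senescent libraries of batch A. In batch B it had 712, 752, 548 and 624 in non-senescent and 345, 299, 339 and 456 in senescent libraries. The groups did not overlap within a batch, although in A the gap between them was small. UCN3 fell by 0.63 on the log2 scale (SE 0.13, limma adjusted p 0.00113, fold 0.646, 95% interval 0.532 to 0.784). Its response was -0.14 in A, which did not pass (adjusted p 0.694), and -0.88 in B, the opposite order of that of GCG and SST. The batch difference of -0.74 passed narrowly (interaction adjusted p 0.0917), and with a pseudocount of 0.1 it did not (adjusted p 0.104). The UCN3 call also rests on single libraries of batch B, since the change was -0.58 without non-senescent B1, -0.56 without non-senescent B2 and -0.55 without senescent B2, each under the fold change limit.

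**Figure D2:**
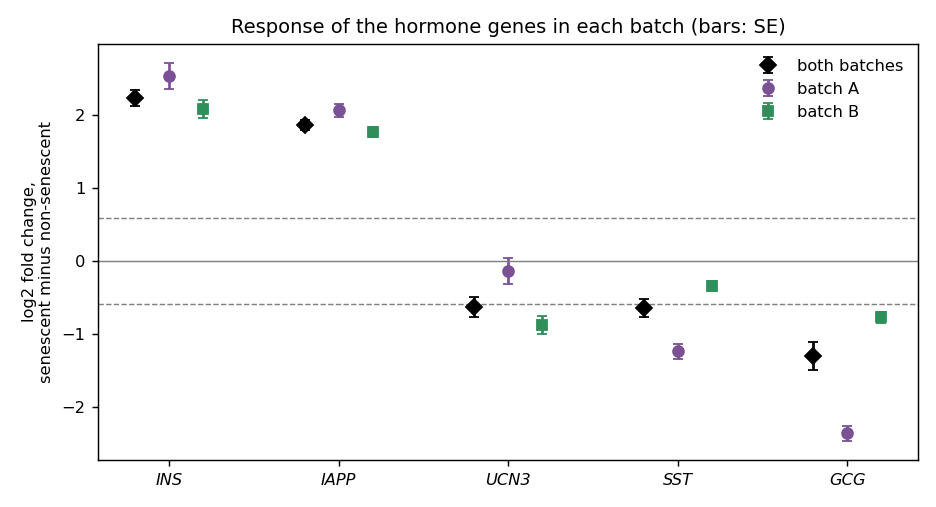
Log2 fold change, senescent minus non-senescent, of the 5 tested hormone genes over both batches (diamonds), in batch A (circles) and in batch B (squares), with bars for the SE. Dashed lines mark a fold change of 1.5. INS and IAPP are above 1.7 in both batches, GCG and SST fell more in A, and UCN3 fell in B and stood at -0.14 in A.

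GHRL (chromosome 3, 10285666 to 10292947, minus strand) had few reads. Batch A held 20 and 18 reads in non-senescent and 7 and 3 in senescent libraries, and batch B held 2, 3, 5 and 0 in non-senescent and 0, 1, 3 and 0 in senescent libraries. Reads were fewer in senescent libraries of A, and the groups overlapped in B. Summed over libraries this was 48 of 41838457 and 14 of 55935618 reads, or 1.15 and 0.250 RPM. The mean difference in RPM between single libraries, taken within batches and weighted by their libraries, was -0.740. Permuting the labels within batch (exact, two-sided) gave a p of 0.0476 for this mean difference, where 0.00476 is the smallest attainable. In limma without the filter on low values GHRL was called lower (log2 fold change -1.37, SE 0.54, adjusted p 0.0883 over 22707 genes), as were 7.67% of those genes. GHRL shares 288 exonic bases with its antisense gene GHRLOS, which was not analysed here, so reads of the 2 may not be told apart. MBOAT4, the enzyme that acylates ghrelin, had 3 reads over all 12 libraries.

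PPY (chromosome 17, 43940804 to 43942476, minus strand) had 1 read in non-senescent A2, 2 reads in non-senescent B2 and 0 reads in the other 10 libraries. The 0 reads of the senescent group allow up to 0.0536 RPM over that group. With 3 reads in all, a difference was not detectable at this depth (two-sided exact permutation p 0.5).

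Together the 7 genes took 2.64% to 4.60% of all reads, and the make-up of these hormone reads differed between the groups. In batch A they held 4.24% and 4.60% of reads in non-senescent and 3.80% to 4.00% in senescent libraries, and in batch B 2.64% to 2.84% and 2.64% to 2.78%. Among these hormone reads INS had 8.98% to 10.5% in non-senescent and 57.5% to 58.8% in senescent libraries of A, and 5.87% to 8.85% and 25.0% to 33.0% in B. SST had 87.7% to 90.9% of them in all non-senescent libraries, 38.1% to 39.3% in senescent A and 63.9% to 71.7% in senescent B. These are shares of reads, compared between groups for the same gene and not between genes.

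A ratio of 2 hormone genes within a library does not depend on how libraries are scaled. It therefore gives the size of the difference between 2 responses free of that scaling. All 10 pairs of the 5 tested genes were compared by exact permutation of the labels within batch (two-sided, 420 arrangements) with Benjamini-Hochberg adjustment over the 10 pairs, and 8 passed at 0.05. The 6 ratios of INS or IAPP to GCG, SST or UCN3 rose, and none of them overlapped between groups in either batch. The single genes fixed this outcome, since INS and IAPP lay wholly higher and GCG, SST and UCN3 wholly lower within each batch. The exact p of these 6 could thus only be the smallest possible and adds no support beyond the single genes. INS to GCG rose most, 11.6-fold (exact p 0.00476, the smallest possible, adjusted p 0.0068). Its log2 ratio went from 3.45 to 3.58 in non-senescent to 8.31 to 8.51 in senescent libraries of A, and from 1.24 to 1.83 to a range of 4.06 to 4.65 in B. INS to SST rose 7.34-fold, INS to UCN3 7.28-fold, IAPP to GCG 8.99-fold, IAPP to SST 5.69-fold and IAPP to UCN3 5.65-fold, each with the same p.

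Within the 2 directions the ratios moved less. INS to IAPP rose 1.29-fold (exact permutation p 0.0333, adjusted p 0.0417), with non-senescent log2 ratios of 3.61 to 4.18 overlapping senescent ones of 3.94 to 4.55. This call was lost without any of 9 of the 12 libraries (log2 change 0.29 to 0.40, adjusted p 0.0536 to 0.101). The 9 were non-senescent A2, B1, B3 and B4 and senescent A1, A2, B2, B3 and B4. GCG fell more than SST, with a GCG to SST ratio of 0.634-fold (log2 change -0.66, exact permutation adjusted p 0.0068), with log2 changes of -1.12 in A and -0.43 in B and no overlap in either. When labels were permuted over all 12 libraries rather than within batch this ratio did not pass (exact permutation adjusted p 0.376). Non-senescent log2 ratios were -6.76 to -6.64 in A and -5.19 to -5.05 in B. GCG to UCN3 (log2 change -0.67, exact permutation adjusted p 0.238) and SST to UCN3 (-0.01, adjusted p 0.967) did not pass. Both held opposite signs in the 2 batches, with -2.23 in A and 0.11 in B for GCG to UCN3 and -1.10 and 0.53 for SST to UCN3.

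**Figure D3:**
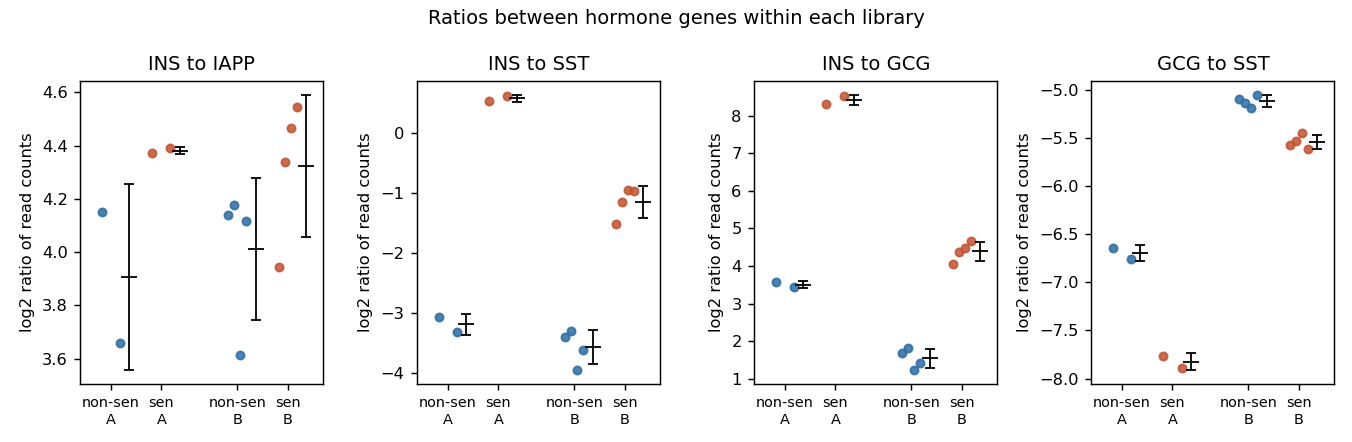
Log2 ratio of read counts of 2 hormone genes within each library, for INS to IAPP, INS to SST, INS to GCG and GCG to SST, with axes that do not start at 0. Points are libraries, non-senescent (blue) and senescent (orange), with the mean and SD beside them (n = 2 in A, n = 4 in B). INS to IAPP overlaps between groups, and the other 3 ratios are separated within each batch.

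With each library centred on its batch, the log2 levels of the members fell into the same arrangement. Across the 12 libraries Pearson's r was 0.981 between INS and IAPP, 0.992 between GCG and SST and -0.892 between INS and GCG, while UCN3 had 0.450 with GCG and 0.404 with SST. These values describe libraries that share group and depth, and carry no test. By the same measure the genes most like INS were CIDEB (r = 0.995), ORAI3 (0.989), AMN (0.989), PRKAB2 (0.988) and NMNAT2 (0.987). Those most like IAPP were PLAGL1 (0.996), CADPS (0.995), a factor of dense-core vesicle release, and ADA2 (0.993). NPY, the neuropeptide Y precursor and a relative of pancreatic polypeptide, was the gene most like GCG (0.987) and stood next to CACNA1A (0.975), a calcium channel subunit, for SST (0.969). NPY fell by 2.47 on the log2 scale in A and by 0.96 in B, the order seen for GCG and SST. Being picked here by its likeness to them over these same libraries favours that order, which is no separate finding. Genes most like UCN3 were POLR2J (0.978), MRPL9 (0.962) and PSMB6 (0.953).

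Of 20 tested transcription factors of hormone genes 4 were called higher, 2 lower and 14 not, a share of calls near the 23.4% of all tested genes, with a median log2 fold change of -0.06 against 0.01 over all tested genes. MAFA, an activator of the INS promoter, rose by 2.36 (SE 0.25, limma adjusted p 1.16e-06), from 8.89 to 27.3 normalised read counts in non-senescent to 44.4 to 114 in senescent libraries. PAX4, a beta cell lineage factor, rose by 1.57, GLIS3 by 0.90 and PDX1, which binds the TAAT core, by 0.59 (adjusted p 2.49e-06). GLIS3 stood at 0.18 in A and 1.26 in B. HHEX, a factor that delta cells need to keep SST on, fell by 0.74 (SE 0.13, adjusted p 0.00021), with -0.78 in A and -0.71 in B. INSM1, a zinc finger factor of endocrine cells, fell by 0.63. IRX2, an alpha cell factor, had 0.38 in A and -0.87 in B (interaction adjusted p 0.000105). NKX6-1 had 0.11 in A and -0.61 in B, and IRX1 0.35 and -0.81 (limma interaction adjusted p 0.0174 and 0.00552).

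Relatives of the hormones were mostly too low to test, with 6 of 25 tested, of which 2 were called higher and 2 lower (median -0.21). The shares over all tested genes were 11.6% higher and 11.8% lower. IGF2, the growth factor next to INS and of the same family, rose by 2.99 (SE 0.07, limma adjusted p 2.89e-14), from 3070 to 4999 normalised read counts in non-senescent to 20444 to 45284 in senescent libraries. It rose by 2.79 in A and 3.09 in B. ADM, or adrenomedullin, of the IAPP family, rose by 1.32 and overlapped between groups within a batch. NPY fell by 1.46 and CRH, corticotropin-releasing hormone of the UCN3 family, by 0.94. Among 17 other peptide genes 5 were tested, with 1 called higher and 3 lower (median -0.80). NPPC rose by 2.93 from 0 to 3.01 to a range of 5.84 to 13.6 normalised read counts, and NMU, POMC and NMB fell by 2.09, 1.59 and 0.67. NPPC and POMC passed the filter on low values only through the group where they were higher. The filter thus favoured their directions, which carry no weight in these counts. POMC also overlapped between groups within a batch. GAST, the gastrin gene, was not called (-0.80, adjusted p 0.111) but stood at -2.75 in A and 0.17 in B (interaction adjusted p 0.00128).

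A list of receptors of the islet hormones and of related peptides was called in 1 direction, with 5 of 7 tested called higher (against 11.6% of all tested genes) and 0 lower and a median log2 fold change of 0.83, while 13 of the 20 listed were too low to test. The somatostatin receptors SSTR1 and SSTR3 rose by 1.05 and 0.90 (limma adjusted p 5.99e-05 and 6.05e-05), while SSTR2 had -0.22 and was not called. SSTR2 had the most reads of them, with a non-senescent mean of 1461 normalised read counts against 50.2 for SSTR1 and 90.3 for SSTR3. RAMP1 was not called either (-0.26) and stood at 1.08 in A and -0.93 in B (limma interaction adjusted p 0.0289). INSR, the insulin receptor, rose by 0.61, IGF1R, the receptor of the insulin-like growth factors, by 0.83 and GIPR, the receptor of the incretin GIP, by 1.18. INSR at 0.51 in B, and IGF1R at 0.47 and SSTR3 at 0.51 in A, were under the fold change limit. SSTR5, SSTR4, GHSR and CRHR1 had 0 reads in all libraries. Of 8 tested genes that cut and trim the precursors, 4 were called higher and 1 lower (median 0.65). Over all tested genes these shares were 11.6% and 11.8%. PCSK1, the convertase that opens proinsulin, fell by 1.06 (SE 0.12, adjusted p 3.47e-06), with -1.55 in A and -0.81 in B. PCSK2, which also cuts proglucagon, had 0.53 (adjusted p 1.84e-05) and stayed under the fold change limit. PCSK1N, an inhibitor of PCSK1, rose by 1.23, PAM, which amidates amylin, by 0.92, SCG5, the chaperone of PCSK2, by 0.79, and CPE, which trims the cut ends, by 0.77. Of these, PAM stood at -0.15 in A and 1.45 in B, SCG5 at 0.35 and 1.01 and CPE at 0.27 and 1.02 (limma interaction adjusted p 0.00425, 0.00737 and 0.00797), so that in A all 3 were under the fold change limit. The batch difference of PCSK1 passed as well (interaction adjusted p 0.0533). Of the 3 peptidases that break hormones down DPP4 rose by 1.40, and IDE (-0.20) and MME (0.51) were not called.

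**Figure D4:**
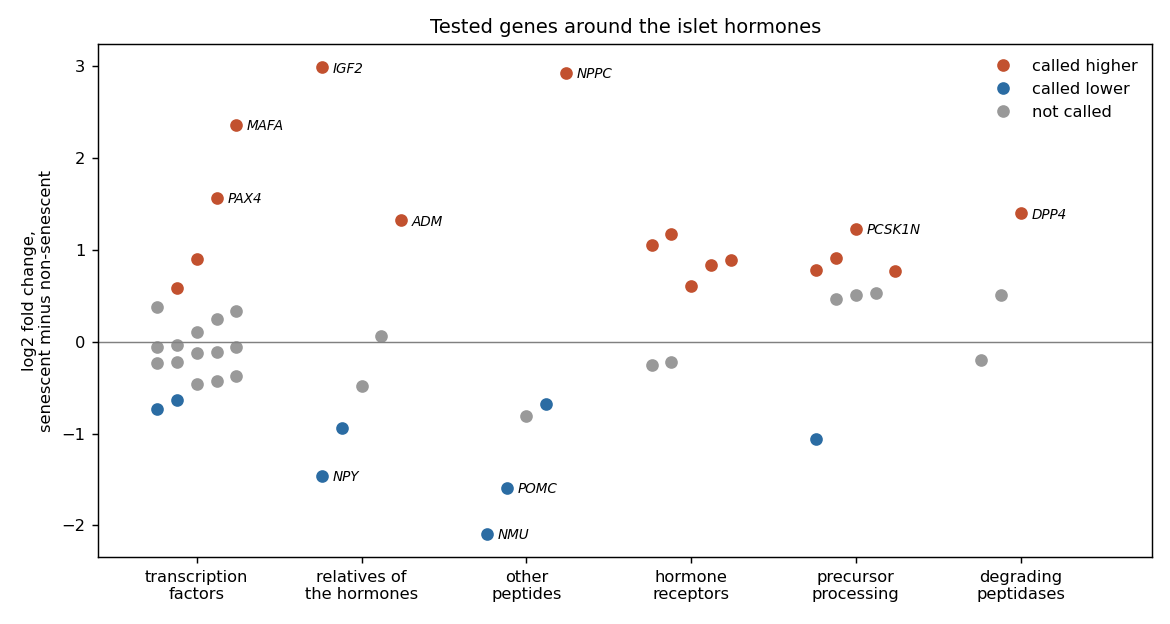
Log2 fold change, senescent minus non-senescent, of the tested genes in 6 lists around the islet hormones. Each point is a gene, called higher (orange), called lower (blue) or not called (grey), and genes beyond 1.2 in size are named. IGF2, NPPC and MAFA stand at the top and NMU, POMC and NPY at the bottom, and 0 hormone receptors were called lower. NPPC and POMC passed the filter on low values only through the group where they were higher.

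Markers of the islet cell types were counted to set beside the hormones they accompany. Among all tested genes 11.6% were called higher and 11.8% lower, the shares to hold these counts against. Of 9 tested alpha cell markers 4 were called higher (CRYBA2, LOXL4, TTR and DPP4) and 0 lower, with a median log2 fold change of -0.05, while GCG fell. Their summed level was 15768 to 17217 RPM in non-senescent and 28321 to 31142 in senescent libraries of A, and 6837 to 7849 and 20886 to 25227 in B, most of it TTR. Of 5 tested delta cell markers 2 were higher (CASR and RBP4) and 2 lower (HHEX and LEPR), with a median of 0.06, while SST fell. The delta list summed to 164 to 225 RPM in non-senescent and 278 to 329 in senescent libraries. CASR weighed most in this rise, with means of 703 and 1631 normalised read counts in the 2 groups. Means were 324 and 481 for RBP4, 235 and 139 for HHEX and 30.1 and 11.9 for LEPR. The delta cell marker GHSR was at 0 reads. Of 9 tested beta cell markers 5 were higher (MAFA, ENTPD3, G6PC2, SYT13 and PDX1) and 0 lower, with a median of 0.59 and a sum of 1317 to 1415 and 1272 to 1320 RPM in A and 899 to 1049 and 1028 to 1141 in B. Not called were NKX6-1 (-0.37), SLC30A8 (-0.16), DLK1 (-0.15) and PFKFB2 (0.26). NKX6-1 stood at 0.11 in A and -0.61 in B, SLC30A8 at -0.63 and 0.08, and PFKFB2 at -0.34 and 0.56. These batch differences passed (limma interaction adjusted p 0.0174, 0.00521 and 0.0156). Of 5 gamma cell markers 3 were higher (PTP4A3, MEIS2 and SLC6A4), and of 3 epsilon cell markers ACSL1 was lower, while PPY and GHRL were near 0.

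Of 3 tested markers of enterochromaffin cells, the serotonin-making endocrine cells of the gut, FEV was called lower, as were 11.8% of all tested genes. DDC (0.46) and TPH1 (0.64) were not called, and the median was 0.46. DDC stood at 0.93 in A and 0.23 in B (limma interaction adjusted p 0.0240). The list summed to 45.3 to 54.4 RPM in non-senescent and 81.4 to 83.2 in senescent libraries of A. In B it summed to 176 to 208 and 197 to 218 RPM. Among markers of cells outside the endocrine lineage the ductal list summed to 35.0 to 54.8 RPM in non-senescent and 10.3 to 21.8 in senescent libraries, with KRT19 lower, and the acinar list to 4.77 to 8.18 and 18.8 to 33.6, with CPA1 higher. Mesenchymal, endothelial and immune lists reached at most 23.8, 3.48 and 7.49 RPM, and among their 6 tested genes PTPRC was called, lower. PTPRC passed the filter only through its non-senescent values, with a mean of 13.5 normalised read counts against 3.26 in senescent libraries. PDGFRB, VWF and CTRB2 had 0 reads in all libraries. The part of any of these cell types in the hormone results was not tested.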

How the data were processed

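Per the study's methods and processing notes, the authors used cutadapt for trimming, Salmon 0.13.1 with GRCh38 for quantification and DESeq2 for normalisation of the 3′ CEL-seq reads. The annotation and the use of molecular identifiers are not given in the sources used here, so several reads may come from the same molecule. The deposited values are a signal: reads per gene divided by 1 size factor per library, called normalised read counts. They were whole reads after multiplication by that factor (100% of 196021 non-zero values, tolerance 1e-06). Also deposited were columns of the authors' own comparison (log2 fold change and its error, a test score, raw p-value and adjusted p-value), and none of them was used.

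The 7 hormone genes and all gene lists were chosen with earlier results of these data known. The main test was limma 3.58.1 (R 4.3.3) with trend, batch and group, on the log2 of the normalised read count plus 1, for 13847 genes with a mean of at least 5, with Benjamini-Hochberg adjustment over all of them, called at 0.1 and 1.5-fold, the limits of the study. Fold changes on this scale understate changes of low genes. Responses within A and B and their difference came from a fit with the interaction. Genes named are the members, called genes of each list and genes a result turns on, and for each member the 3 genes (5 for INS), with a mean of at least 20, of highest batch-centred Pearson's r. Alternatives varied the pseudocount (0.1, 8), filter, scaling, batch term, replicate block, batches, single libraries, trend and tool, with edgeR 4.0.16 and DESeq2 1.42.0 on recovered reads. Procedures were tested on simulated data. Gene positions are from GENCODE on GRCh38, and promoters from RefSeq, matched by symbol for 6 of 7 members. Counts are over whole lists, and values of a few list genes are left out.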

Additional observations from a re-analysis of the deposited data

Results flagged for a closer look

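For 3 hormone genes the senescence response was not the same in batches A and B by limma's interaction test (adjusted p under 0.1). The log2 response in B less that in A was 1.59 for GCG (SE 0.13), 0.89 for SST (SE 0.12) and -0.74 for UCN3 (SE 0.22). GCG and SST thus fell less in B than in A, and UCN3 fell more. In non-senescent cells the batches already differed, B minus A, by 0.88 for GCG and -0.70 for SST (limma adjusted p 7.4e-07 and 4.54e-06), while for UCN3 the value was -0.09 and did not pass (adjusted p 0.651). Depth and the mitochondrial share also differed between the batches, and their part in these differences was not tested. Among 24 sets of libraries examined for a library far from the others, 0 held one.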

How the results depend on the processing

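INS and IAPP kept their direction and call under all 25 alternatives each, and the ratios of INS or IAPP to GCG, SST and UCN3 under all 16 each. Left-out libraries gave 3142 to 3277 called genes and 4 or 5 called hormone genes. Without a batch term 2143 genes were called in place of 3237, and GCG, at -1.30, was not. Deviations of same-numbered libraries from the mean of their group and batch had r from -0.05 to 0.02. With 2 libraries per group in A these values are tied to each other. They cannot settle whether the numbers pair the libraries. A replicate block gave 3211 called genes and changed no hormone gene call. On the recovered reads edgeR called 3238 genes (3071 shared with limma) and DESeq2 3223 (3093 shared). Scaling to the same total moved the median of all genes from 0.01 to -0.09. Without the filter 6 hormone genes were called, GHRL being added.

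Within single batches, SST was not called in B (-0.35), nor UCN3 in A (-0.14), and INS to IAPP did not pass in B (0.31). There GCG to UCN3 (0.11) and SST to UCN3 (0.53) turned positive, as SST to UCN3 did in 5 of 12 fits without a library (-0.13 to 0.13). Left-out libraries gave -0.69 to -0.56 for SST, -0.71 to -0.55 for UCN3 and 0.29 to 0.45 for INS to IAPP. The UCN3 batch difference, -0.74, missed its limit at a pseudocount of 0.1, and GCG to SST, -0.66, with labels permuted over all 12 libraries. The causes of these changes were not tested. Fits on a single batch or without a library hold fewer libraries, while the changed pseudocount and the permutation over all 12 kept every library. Depth limits GHRL and PPY.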
